A study of Mus musculus with 6 samples.

Results

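The karyopherins and the Ran cycle are the machinery that carries proteins through nuclear pores. The genes named for this group were Kpna1, Kpna2, Kpna3, Kpna4, Kpna6, Kpnb1, Ran, Rcc1, Rangap1 and Xpo1, and their members were all probe sets that the array annotation maps to exactly 1 of these symbols. Of the 10 genes, 9 had such a probe set, 21 probe sets in all among the 21646 tested, and Kpna1 had none and was not analysed here. A probe set is a group of short oligonucleotides on the array that together give 1 value for a transcript. Expression was compared between mature mouse oocytes and immature ones, with 3 biological replicates of 300 oocytes per stage and 1 array each. Mature oocytes, stopped in metaphase II of meiosis (MII), had a visible polar body and were taken from oviducts 14 h after 5 IU of hCG, which triggers ovulation. These mice had first received 5 IU of eCG, which drives follicle growth. Immature oocytes at the germinal vesicle (GV) stage had an intact nucleus, came from large antral follicles 44 to 46 h after 5 IU of eCG, and were collected in medium with 5 µM milrinone, which blocks the oocyte's phosphodiesterase and holds it in meiotic arrest. The labels call the medium for MII oocytes the same, without saying whether it held milrinone for them. Mice of both groups were 22 to 24 days old, and no strain, genotype or allele is named in the labels used here. Cumulus cells were stripped with hyaluronidase from MII oocytes and by pipetting from GV oocytes, so the collection route differs between the stages along with maturation.

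Importin alpha proteins (the Kpna genes) recognise nuclear localisation signals and bind importin beta, the product of Kpnb1, which carries the complex through the pore. In the nucleus the GTP-bound form of the small GTPase Ran releases the cargo. The same form of Ran binds exportins such as the product of Xpo1, which takes proteins with nuclear export signals out. Rcc1, bound to chromatin, loads Ran with GTP, and Rangap1, in the cytoplasm and at the pore, drives its hydrolysis. When the nuclear envelope is gone, as in the MII oocyte, Ran-GTP around the chromosomes releases spindle assembly factors from importins.

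All values are the deposited log2 expression values, and differences are MII minus GV on that scale. Each sample was a pool labelled from 10 ng of total RNA, so a level is per amount of RNA, and a change in every oocyte cannot be told apart from one in some of them. Array medians were 5.47 to 5.49 at MII and 6.10 to 6.12 at GV. Yet all 6 arrays had the same lowest and highest value, 1.85 and 13.30, and 7070 to 7073 distinct values each. How this arose was not tested. The oocyte markers were all measured, and 13 of 13 lay above the array median on some array. Their mean level was 9.52 to 9.71 on the MII and 10.57 to 10.65 on the GV arrays, with 7 markers called lower and 2 higher. Of all genes, read by the brightest probe set, 37.8% were called lower and 10.5% higher. Of 15 granulosa and cumulus markers 11 were measured, and 8 of these lay below the median of every array, among them Fshr, Nr5a1 and Hsd17b1. The others were Inhba, Gja1 and Foxl2. Inhba lay above the median on the GV arrays (6.45, 6.59 and 6.23) and Gja1 on GV replicate 1 (6.32). Foxl2 lay above it on the MII arrays (5.85, 5.73 and 5.70) and on GV replicate 2 (6.15). The mean level of the 11 was 3.62 to 3.74 on the MII and 4.32 to 4.39 on the GV arrays. Where 37.8% of all genes were called lower, 4 of the 11 were (Gja1 at -3.74, Inhba at -1.40, Inhbb at -1.02 and Fshr at -0.51). Their part in the results that follow was not tested.

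The largest changes in the group lay in transport receptors, with the importin beta gene Kpnb1 lower on 3 of its 4 probe sets and higher on the fourth, and the exportin gene Xpo1 lower on 1 of 2. The Ran exchange factor gene Rcc1 was called higher, though not when arrays were scaled on control features. The 5 probe sets of Ran itself and the brightest probe sets of the importin alpha genes were not called as deposited. By limma, with a Benjamini-Hochberg adjusted p under 0.05 over all 21646 probe sets as the threshold, 2 of the 21 were called higher and 6 lower, where 10.9% of all probe sets were called higher and 34.1% lower. At a change of at least 2-fold, 1 was called higher and 4 lower, against backgrounds of 1.53% and 20.6%. The MII and GV values did not overlap for 2 probe sets with MII above and 10 with MII below, a pattern found in 14.6% and 39.4% of all probe sets. The median difference was -0.31 over the 21 probe sets and -0.15 over all probe sets. With 1 probe set per gene, that with the highest mean, 1 of the 9 genes was called higher and 3 lower, where 10.5% and 37.8% of 11429 genes were. These shares lie near those of the whole array.

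**Figure D1:**
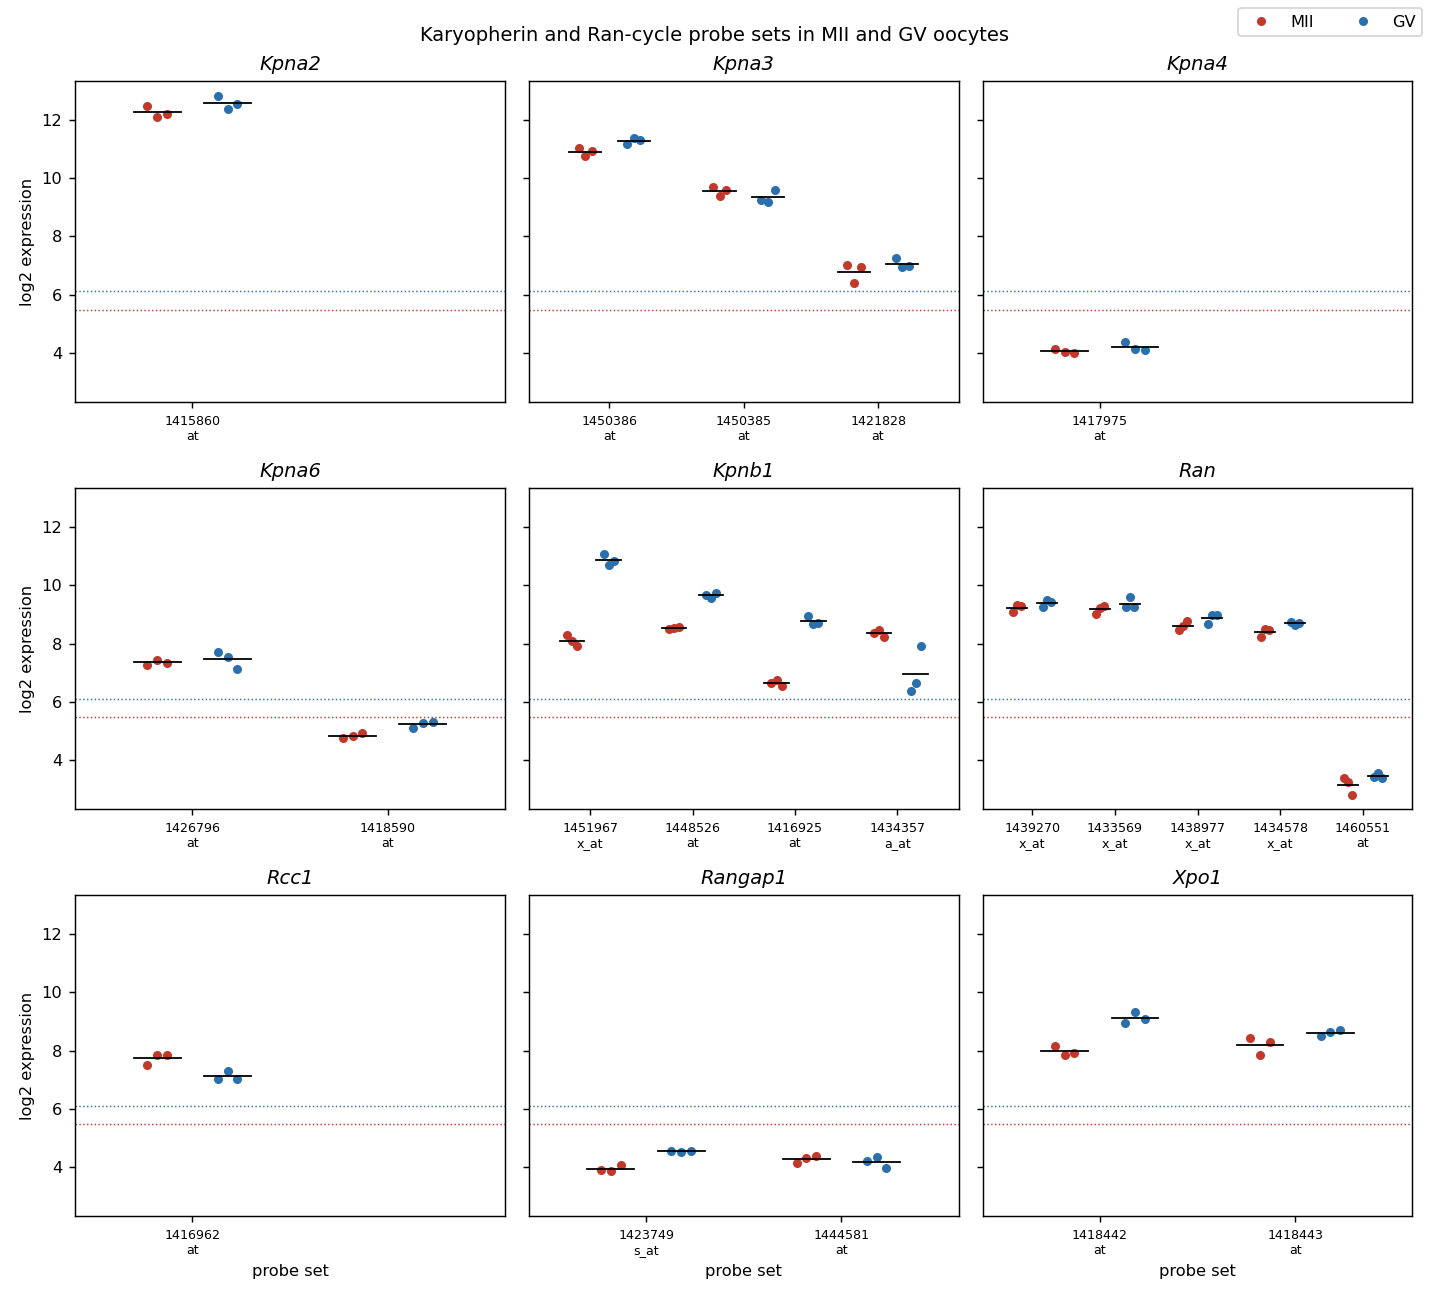
Log2 expression (y axis) of each of the 21 probe sets (x axis) by gene, with the 3 MII samples as red points left of the 3 GV samples as blue points and a black bar at each stage's mean. Dotted lines mark the mean array median of each stage. Kpnb1 has 3 probe sets lower at MII and 1 higher, and both Rangap1 probe sets lie below the medians.

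Kpnb1, the importin that docks with the pore and carries importin alpha and its cargo, gave the steepest fall. Its brightest probe set, 1451967_x_at, had values of 8.30, 8.09 and 7.92 in MII oocytes, against 11.09, 10.72 and 10.82 in GV oocytes. The stages are far apart beside a spread of 0.19 (SD) in each. The difference was -2.77 ± 0.16 (SE, n = 3 per stage; limma adjusted p = 3.6e-07), a 6.83-fold lower level. For 1416925_at the values were 6.64, 6.74 and 6.53 at MII and 8.95, 8.66 and 8.72 at GV, and for 1448526_at they were 8.49, 8.53 and 8.56 at MII and 9.66, 9.56 and 9.73 at GV. Both fell without overlap, by 2.14 ± 0.14 and by 1.12 ± 0.13 (limma adjusted p = 9.3e-07 and 4.7e-05), and these are annotated to the same transcript record.

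The other Kpnb1 probe set, 1434357_a_at, ran the opposite way. It read 8.37, 8.46 and 8.22 in MII oocytes, against 6.36, 6.63 and 7.91 in GV oocytes. All MII values lie above all GV values, but the GV samples spread widely (SD 0.83, against 0.12 at MII), since GV replicate 3 read 7.91 and the other GV samples were more than 1 unit lower. The rise was 1.39 ± 0.33 (limma adjusted p = 0.0067), and it was 1.86 without GV replicate 3. With no moderation of the variance the rise was no longer called (adjusted p = 0.10). Of the 4739 genes with several probe sets on the array, 513 had probe sets called in opposite directions. Opposite calls are therefore not particular to Kpnb1.

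Whether probe sets of a gene changed unequally was tested on their difference within each array, which is free of any additive scaling of the array, by limma over all 7649 pairs of a brightest probe set and another of its gene. Of these pairs 42.6% were called, and 6 of the 12 among the karyopherin and Ran genes. On Kpnb1, 1451967_x_at minus 1434357_a_at was -0.08, -0.37 and -0.31 within the MII arrays and 4.73, 4.08 and 2.91 within the GV arrays. The changes of these probe sets therefore differed by -4.16 ± 0.40 (limma adjusted p = 4.6e-05). Against 1448526_at the difference in change was -1.65 ± 0.20 and against 1416925_at -0.63 ± 0.17 (limma adjusted p = 0.00016 and 0.017), so the size of the fall depended on the probe set. The last of these was not called without MII replicate 2 or 3 (adjusted p = 0.059 and 0.053). The files used here do not give where on the transcripts the probes lie. The suffix _x_at is taken as marking probes that may match other transcripts, and _a_at as marking several transcripts of 1 gene.

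**Figure D2:**
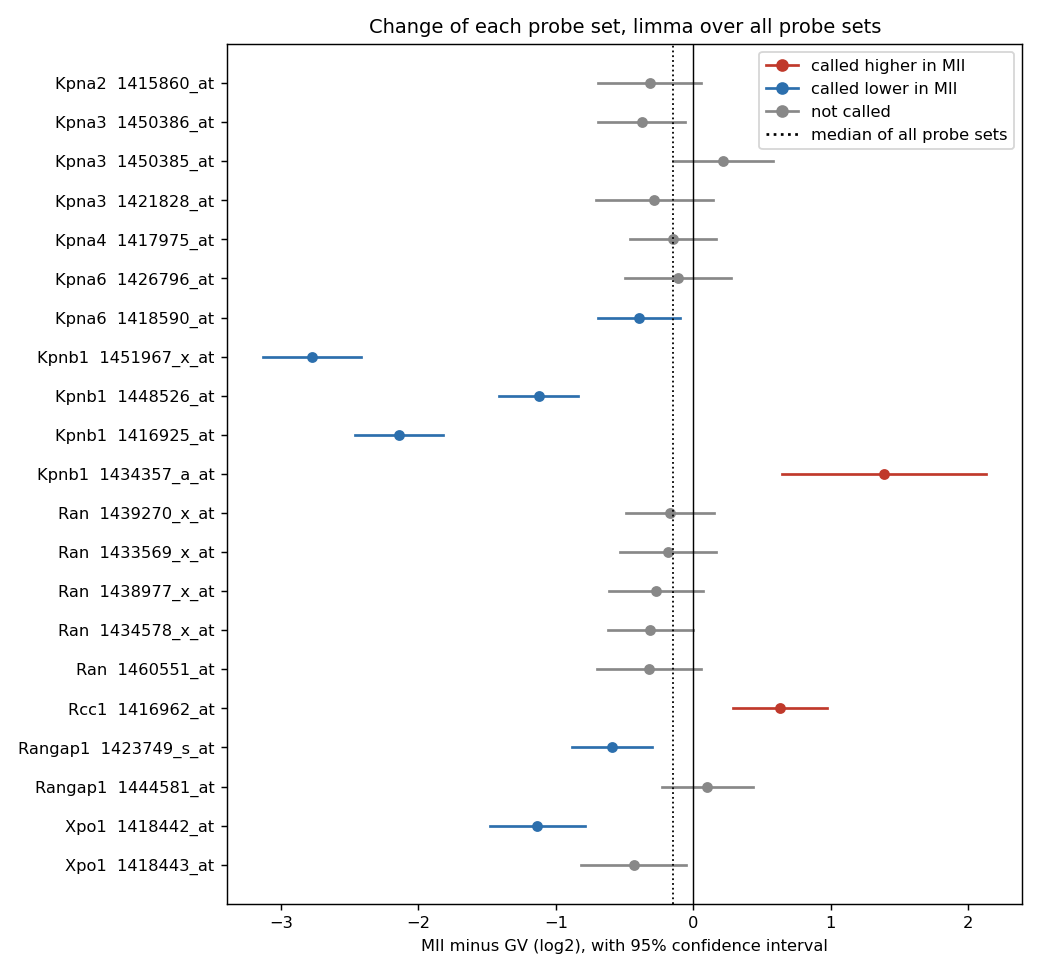
Difference MII minus GV on the log2 scale (x axis) with its 95% confidence interval for each probe set (y axis), coloured by the limma call, and a dotted line at the median of all probe sets (-0.15). The 3 falling Kpnb1 probe sets lie between -2.77 and -1.12, the rising one is at 1.39, and the 5 Ran probe sets lie together between -0.32 and -0.17.

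Of the 7 probe sets of importin alpha genes, which pick the cargo, limma called 1 lower and 0 higher as deposited (also 0 higher at an unadjusted p under 0.05). Of all probe sets 34.1% were called lower and 10.9% higher. All 7 were called lower with equal poly-A controls (-1.27 to -0.66), as were 84.9% of all probe sets. With array medians made equal Kpna3 1450385_at (0.84), Kpna4 (0.48) and Kpna6 1426796_at (0.51) were called higher, as were 55.5% of all probe sets. Kpna2, an importin alpha with 1 probe set here, read 12.49, 12.12 and 12.23 in MII oocytes and 12.84, 12.37 and 12.56 in GV oocytes. The stages overlap, and the difference of -0.32 (95% confidence interval -0.69 to 0.06; limma adjusted p = 0.16) was not called. Kpna2 was above 0 with array medians made equal (0.31).

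Kpna3 had 3 probe sets, all annotated to the same record. The brightest, 1450386_at, read 11.03, 10.75 and 10.95 at MII and 11.18, 11.39 and 11.30 at GV, without overlap, but the difference of -0.38 ± 0.14 did not pass the threshold (limma adjusted p = 0.053). It was called with an intensity trend in the variance (adjusted p = 0.021) and among the brighter probe sets alone (0.047). For 1450385_at the values were 9.72, 9.39 and 9.61 at MII, against 9.26, 9.19 and 9.61 at GV, a difference of 0.22 ± 0.16 that was not called. Within the arrays these probe sets changed unequally, by -0.59 ± 0.19 (limma adjusted p = 0.032), a call lost without any 1 of the samples except GV replicate 3 (adjusted p = 0.061 to 0.11). The dimmest, 1421828_at, differed by -0.28 ± 0.19, not called.

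Kpna6, an importin alpha whose maternal supply mouse embryos need to develop past cleavage, had a brighter probe set, 1426796_at, with 7.26, 7.44 and 7.35 at MII and 7.72, 7.55 and 7.11 at GV. The stages overlap, and the difference was -0.11 (95% confidence interval -0.50 to 0.27). The dimmer one, 1418590_at, read 4.75, 4.82 and 4.91 at MII and 5.10, 5.25 and 5.32 at GV, below the median of every array. It fell by 0.40 ± 0.13 (limma adjusted p = 0.036), and lost the call when any 1 sample except GV replicate 1 was left out (adjusted p = 0.055 to 0.11). The call was also lost with an intensity trend in the variance (adjusted p = 0.056) and with equal hybridization controls (0.080), and the sign turned with array medians made equal (0.23) and after quantile normalization (0.12). The difference in change between these probe sets, 0.28 (95% confidence interval -0.24 to 0.80), was not called. Kpna4 lay below all array medians, with 4.14, 4.03 and 4.01 at MII and 4.38, 4.13 and 4.11 at GV, and was not called (-0.15 ± 0.14).

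Ran, the GTPase that gives transport its direction, was measured by 5 probe sets, and none of their differences was called. On the brightest, 1439270_x_at, the values were 9.08, 9.33 and 9.29 in MII oocytes and 9.26, 9.51 and 9.44 in GV oocytes, with overlap and a difference of -0.17 (95% confidence interval -0.49 to 0.15; limma adjusted p = 0.37). The interval holds a fall of up to 0.49 and a rise of up to 0.15 on the log2 scale. The others differed by -0.19, -0.27, -0.31 and -0.32 (1433569_x_at, 1438977_x_at, 1434578_x_at and 1460551_at; limma adjusted p = 0.093 to 0.37). Of these, 1434578_x_at and 1460551_at had all MII values below all GV values, and the interval of 1434578_x_at ended just below 0 (-0.62 to -0.0041). The probe set 1460551_at, at 3.38, 3.22 and 2.80 at MII and 3.42, 3.56 and 3.39 at GV, lay below every array median, while the other 4 were of the type _x_at, so that copies of Ran elsewhere in the genome may contribute. The 4 differences in change against the brightest probe set were between 0.02 and 0.15, none called by limma (none with an unadjusted p under 0.05, and none with no moderation).

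Of the enzymes of the Ran cycle, Rcc1 rose and Rangap1 fell on 1 of 2 probe sets, as deposited. Rcc1, the chromatin-bound exchange factor, read 7.52, 7.84 and 7.85 in MII oocytes, against 7.02, 7.29 and 7.03 in GV oocytes. The lowest MII value lies above the highest GV value. Its only probe set rose by 0.63 ± 0.15, a 1.54-fold higher level (limma adjusted p = 0.0073), and it kept the call when each sample in turn was left out (0.57 to 0.74). With the hybridization controls made equal between arrays the rise was 0.22 ± 0.37 and not called, where the SE was 0.15 as deposited. With the poly-A controls made equal the difference was -0.25 ± 0.25.

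Rangap1, the GTPase-activating protein, had both probe sets below the median of every array. On 1423749_s_at the values were 3.89, 3.87 and 4.06 at MII and 4.53, 4.50 and 4.56 at GV, so that it fell by 0.59 ± 0.13 without overlap (limma adjusted p = 0.0041). On 1444581_at they were 4.15, 4.31 and 4.36 at MII and 4.21, 4.34 and 3.96 at GV, with overlap and a difference of 0.10 ± 0.15. These changes differed by -0.69 ± 0.18 within arrays (limma adjusted p = 0.015), a call lost without GV replicate 3 or MII replicate 2 (adjusted p = 0.051 each). The fall ended with array medians made equal (0.030) and after quantile normalization (-0.26, not called).

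Xpo1, the exportin for proteins with leucine-rich export signals, fell on 1418442_at, which read 8.15, 7.86 and 7.93 in MII oocytes and 8.94, 9.33 and 9.08 in GV oocytes. The stages are clearly apart, by -1.13 ± 0.15, a 2.20-fold lower level (limma adjusted p = 0.00017). On 1418443_at the values were 8.42, 7.84 and 8.29 at MII and 8.51, 8.64 and 8.71 at GV. They do not overlap, but the difference of -0.43 ± 0.17 did not pass the threshold (limma adjusted p = 0.064). It was called without MII replicate 1 (-0.55, adjusted p = 0.035), shrank to -0.26 without MII replicate 2 (adjusted p = 0.23), and was above 0 with array medians made equal (0.19) and after quantile normalization (0.12). Both probe sets are annotated to the same record, and their changes differed by -0.70 ± 0.19 (limma adjusted p = 0.015), a call lost without GV replicate 2 or MII replicate 3 (adjusted p = 0.058 and 0.054).

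**Figure D3:**
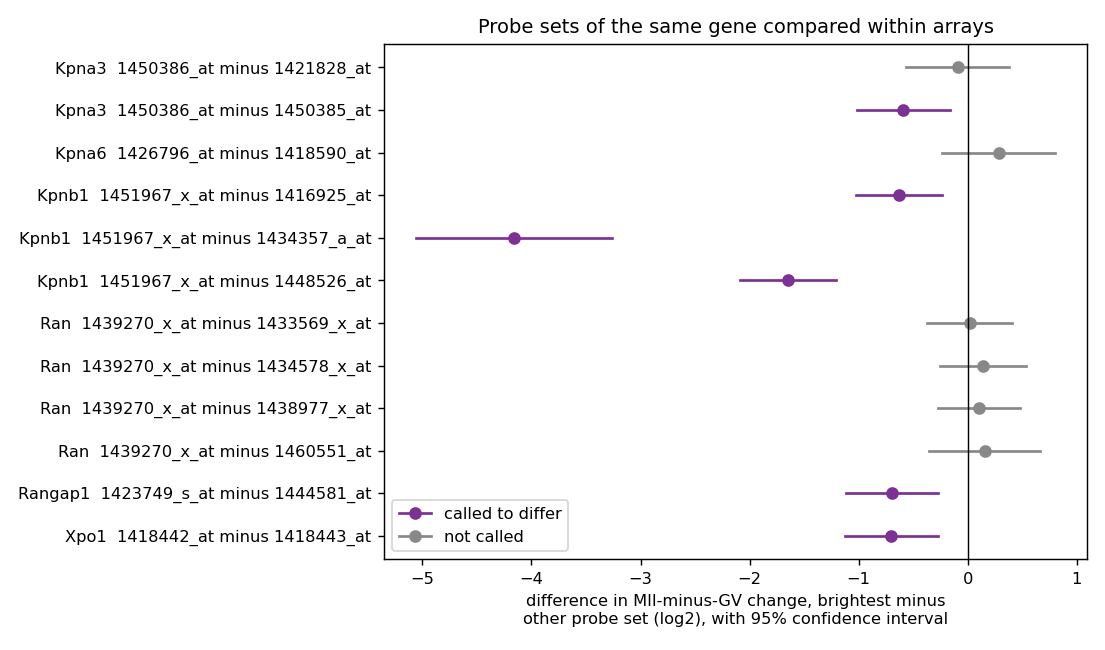
Difference in change (brightest minus other probe set, log2, x axis) with its 95% confidence interval for the 12 pairs of probe sets of 1 gene (y axis). Purple marks the 6 pairs called to differ, led by Kpnb1 1451967_x_at minus 1434357_a_at at -4.16, and grey marks the others, among them all 4 Ran pairs.

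How the arrays are scaled against each other decided most signs in this group, as the plot of the probe sets under 5 scalings shows. The 21646 probe sets had a median difference of -0.15 as deposited. Array medians made equal shifted it by 0.62, quantile normalization by 0.34, equal hybridization controls by -0.40 and equal poly-A controls by -0.87. The poly-A controls were dim, with means of 4.28 to 4.71 on the GV and 5.14 to 5.43 on the MII arrays, below the median of each array. The hybridization controls averaged 9.82, 8.97 and 8.94 on the GV and 9.86, 9.66 and 9.42 on the MII arrays. Scaling on them gave each probe set of the group the same SE of 0.37, so calls there were less precise. The limma p-values there rest on 1 variance common to the probe sets. Yet an error in the controls of an array shifts all its probe sets together, as it does for the poly-A controls. Adjusted p-values under control scaling may therefore be too small. Under these 4 scalings 8, 5, 1 and 0 of the 21 probe sets were called higher, and 4, 4, 5 and 19 lower (with equal poly-A controls 0 were higher at an unadjusted p under 0.05 as well). Across the array the shares called higher were 55.5%, 34.8%, 0.48% and 0.3%, and those called lower 19.9%, 22.1%, 33.2% and 84.9%, so that most of the array was lower with equal poly-A controls as well. The falls of Kpnb1 on 1451967_x_at (-3.64 to -2.15), 1416925_at (-3.01 to -1.52) and 1448526_at (-0.50 at its smallest) and of Xpo1 on 1418442_at (-2.01 to -0.51) were called in all of them. The rise of Kpnb1 on 1434357_a_at kept its sign (0.51 to 2.01) and lost its call only with equal poly-A controls (adjusted p = 0.07). With equal hybridization controls it was 0.98 ± 0.37, a call that carries the limit given above. Every Ran probe set was above 0 with array medians made equal (0.30 to 0.45, 2 of them called) and below 0 and called with equal poly-A controls (-1.20 to -1.04).

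**Figure D4:**
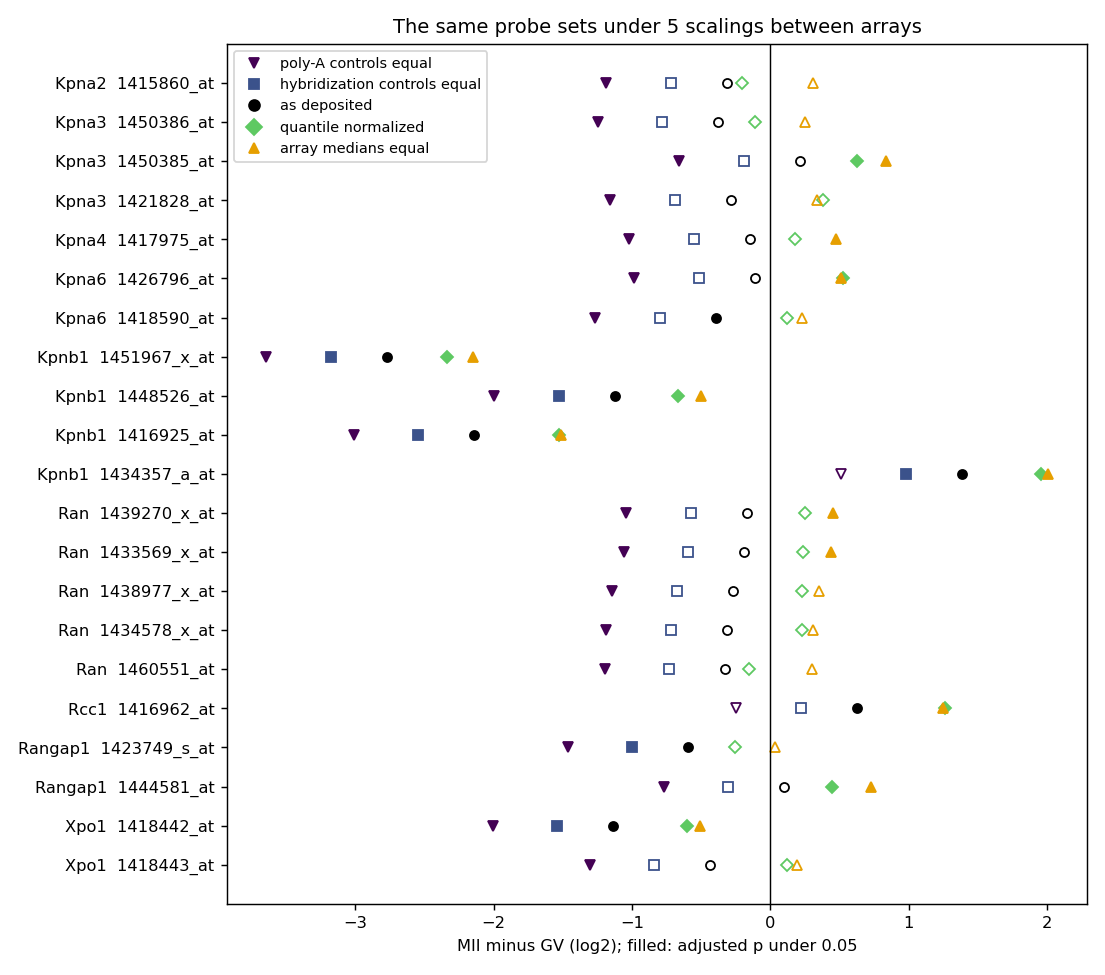
Difference MII minus GV (log2, x axis) of each probe set (y axis) as deposited and under the 4 other scalings between arrays, with filled marks where the limma adjusted p was under 0.05. Kpnb1 keeps 3 probe sets below 0 and 1 above 0 in all 5, as Xpo1 1418442_at stays below 0, while the Ran and importin alpha probe sets cross 0.

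The other genes of nuclear transport were read by the brightest probe set of each gene, 35 genes in all, of which 5 were called higher and 17 lower (10.5% and 37.8% of all genes). Of the 19 further karyopherins listed, 17 were measured, and 3 rose and 9 fell. Ipo13 rose the most, at 7.32, 7.49 and 7.20 in MII oocytes against 6.50, 6.51 and 6.44 in GV oocytes, a rise of 0.85 ± 0.14 without overlap (limma adjusted p = 0.00051). It was 1.48 with array medians made equal and 1.49 after quantile normalization. The difference was 0.45 ± 0.37 and not called with equal hybridization controls (limma adjusted p = 0.36), and -0.020 with equal poly-A controls. Ipo9, which imports histones, fell by 2.07 ± 0.24 and Ipo4 by 1.17 ± 0.18 (limma adjusted p = 4.8e-05 and 0.00035). For Ipo9 the values were 7.33, 7.52 and 7.48 at MII and 10.06, 9.52 and 8.98 at GV on a probe set of type _s_at, and its other probe sets were at -3.24, called, and -0.34, not called. Ipo4 read 5.59, 5.56 and 5.04 at MII and 6.51, 6.74 and 6.47 at GV, and its other probe set was called lower as well, at -3.16. The karyopherins nearest to the group by role included Kpna7, an importin alpha of oocytes and early embryos, at -1.08 ± 0.17 and Cse1l, the exportin that returns importin alpha to the cytoplasm, at -0.92 ± 0.18, both called lower and both chosen after their values were seen. Of the 17, 6 were called higher and 4 lower with array medians made equal, where 55.5% and 19.9% of all probe sets were, and 5 and 6 after quantile normalization, against 34.8% and 22.1%. With equal hybridization and poly-A controls limma called 11 and 14 lower, against 33.2% and 84.9% of all probe sets, and 0 higher (also 0 at an unadjusted p under 0.05). Here and for the lists below, the counts are genes read by the brightest probe set, while these shares are over all probe sets. The bases are unlike, since as deposited 37.8% of genes but 34.1% of probe sets were called lower.

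Of 12 Ran-binding and transport cofactors, 11 were measured, and 1 rose and 5 fell, where 10.5% and 37.8% of all genes did. Ranbp3, a cofactor of Xpo1, rose by 0.97 ± 0.16, with 11.15, 11.47 and 11.02 in MII oocytes against 10.12, 10.44 and 10.16 in GV oocytes (limma adjusted p = 0.00079). It was 1.59 with array medians made equal. The difference was 0.56 ± 0.37 with equal hybridization controls and 0.10 with equal poly-A controls, not called in either. Nxf1, the mRNA export receptor, read 5.95, 5.77 and 5.52 at MII and 9.17, 9.19 and 8.90 at GV, and it fell by 3.34 ± 0.16. Snupn, the adaptor that brings spliceosomal small RNPs to importin beta, read 6.09, 5.88 and 5.94 at MII and 9.07, 9.57 and 9.02 at GV, and it fell by 3.25 ± 0.17. Both were far outside the spread within stages (limma adjusted p = 1.1e-07 and 2.1e-07) and were called lower in all 5 scalings. Of the 11, those called lower numbered 3 under equal medians, 3 under quantile normalization, 5 under equal hybridization controls and 10 under equal poly-A controls, where 19.9%, 22.1%, 33.2% and 84.9% of all probe sets were. Called higher by limma under these scalings were 3, 2, 0 and 0, against 55.5%, 34.8%, 0.48% and 0.3% (the counts of 0 were also 0 unadjusted).

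All 7 listed spindle and envelope proteins that importins bind were measured, and 1 rose and 3 fell, where 10.5% and 37.8% of all genes did. Nusap1, a microtubule-binding spindle protein, fell by 2.67 ± 0.16, with 8.26, 7.90 and 8.29 in MII oocytes against 10.61, 10.89 and 10.95 in GV oocytes (limma adjusted p = 5.1e-07), while its other probe set lay below all array medians and was at -0.09. Lmnb2, a lamin of the nuclear envelope, read 3.07, 2.98 and 2.84 at MII and 4.04, 4.40 and 4.67 at GV, below every array median, and fell by 1.40 ± 0.18 (limma adjusted p = 9.2e-05). Tpx2, the spindle assembly factor that Ran-GTP frees from importins, rose by 0.48 ± 0.15, with 9.70, 10.07 and 10.07 at MII against 9.50, 9.48 and 9.41 at GV (limma adjusted p = 0.023). That rise was lost on leaving out replicate 2 or 3 of either stage (adjusted p = 0.055 to 0.083) and was -0.39 with equal poly-A controls, and the other 3 Tpx2 probe sets, at -0.30, -0.16 and 0.00, were not called. Of the 7, the same 4 scalings gave 3, 3, 3 and 6 called lower, beside the same shares of all probe sets (19.9%, 22.1%, 33.2% and 84.9%), and 3, 3, 0 and 0 called higher by limma, beside 55.5%, 34.8%, 0.48% and 0.3% (0 unadjusted where 0). Of the listed karyopherins and cofactors, Nutf2, Ranbp6 and Ranbp17 could not be read here, since no probe set maps to any of these symbols alone.

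**Figure D5:**
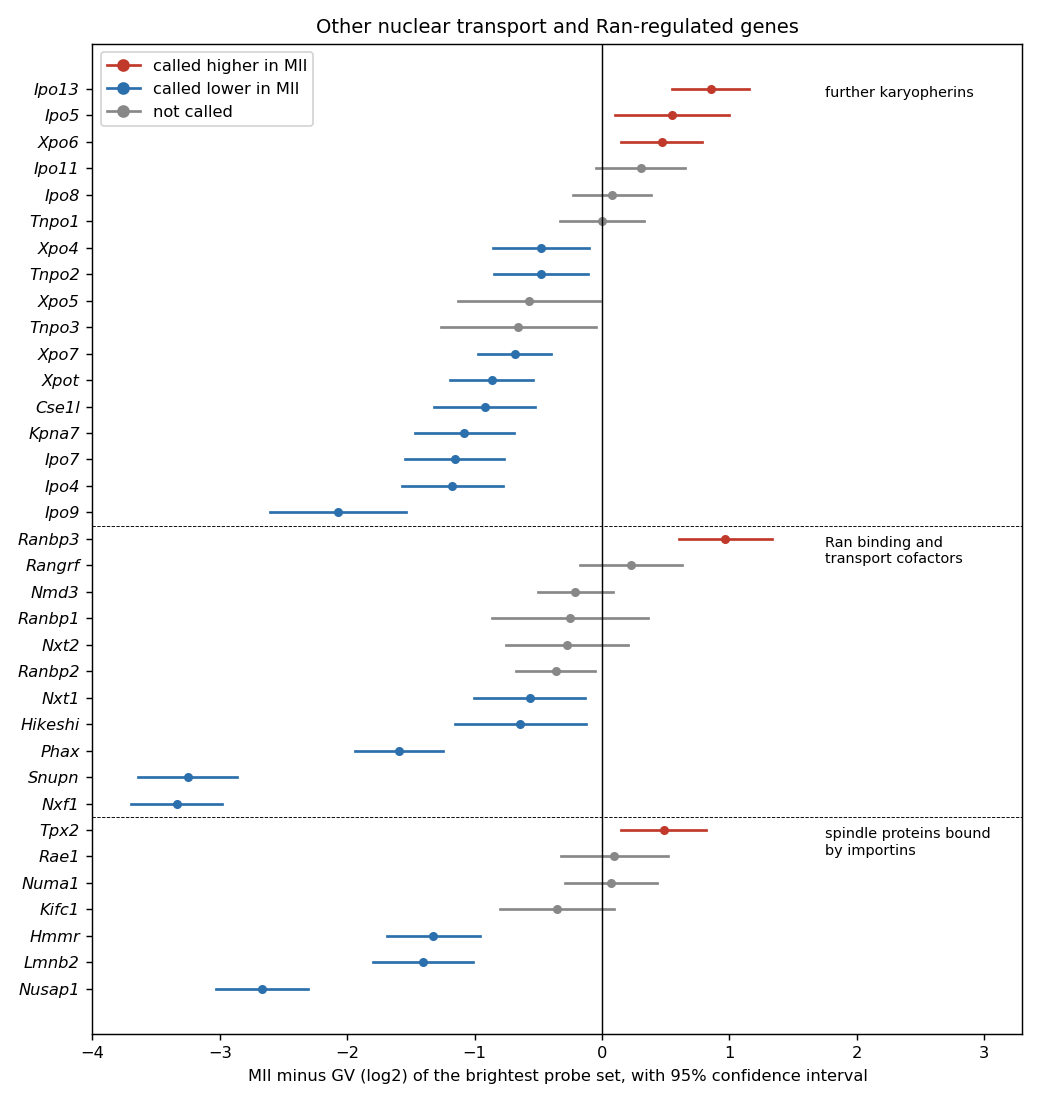
Difference MII minus GV (log2, x axis) with its 95% confidence interval for the brightest probe set of 35 further transport and Ran-regulated genes (y axis), in 3 lists and coloured by the limma call as deposited. Nxf1 (-3.34), Snupn (-3.25) and Nusap1 (-2.67) lie farthest below 0, and Ranbp3 (0.97) and Ipo13 (0.85) farthest above.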

How the data were processed

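The values were deposited on the log2 scale. RMA and the R package affy are named for them, per the submitters' processing notes, and versions, filters and a genome build are not named in what was used here. RNA was amplified in 2 rounds with a mixed primer set, per the labels. From the table of 21702 features, 56 controls were removed. The other 21646 were all tested, without a filter on dim ones; 19078 map to a single symbol, 550 to more than 1 and 2018 to none. All 78 names listed for members, further genes and markers were found in RefSeq's mouse gene table.

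The stages were compared with limma 3.58.1 (lmFit, then eBayes, with stage as the sole term; R 4.3.3; 9.78 total degrees of freedom). Tests were 2-sided, p-values were adjusted by Benjamini-Hochberg across the 21646 features, and 0.05 was the threshold. Confidence intervals are the fit's. The within-array differences of 7649 pairs were fitted likewise. Both fits were tried on simulated data with independent noise, few changed probe sets and no shift between stages over the whole array. These settings are unlike the data here, so the trial bears on the code alone. The number of arrays limits the precision.

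Every member probe set is named and, from each further list, the called gene with the largest rise and the 2 with the largest fall. The members and lists were chosen with earlier results of these data known. No detection measure was used, so a position below the array medians is given instead. Other scalings, variance models, a filter on dim probe sets, other probe sets per gene, replicate numbers and leaving out each sample were tried as alternatives.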

Additional observations from a re-analysis of the deposited data

How the results depend on the processing

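Scaling moved the calls most, and the cause was not tested. With array medians made equal, 12016 probe sets were called higher and 4306 lower, with 8 higher among the 21 karyopherin and Ran probe sets, 4 of their genes higher, and 12 further genes higher and 10 lower. After quantile normalization the counts were 7538 and 4794 over all, 5 probe sets and 2 genes of the group higher, and 10 further genes higher. With equal hybridization controls limma called 104 probe sets higher over all, 1 in the group, 0 of its genes and 0 further genes (also 0 of each at an unadjusted p under 0.05). With equal poly-A controls it called 65 higher and 18380 lower, in the group 0 probe sets higher and 19 lower and 0 genes higher and 8 lower, and 0 further genes higher and 30 lower (the counts of 0 were also 0 unadjusted).

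Signs turned as follows. With array medians made equal the differences were 0.31 for Kpna2, 0.34 and 0.25 for Kpna3 1421828_at and 1450386_at, 0.48 for Kpna4, 0.23 and 0.51 for Kpna6 1418590_at and 1426796_at, 0.44, 0.31, 0.35, 0.45 and 0.30 for Ran 1433569_x_at, 1434578_x_at, 1438977_x_at, 1439270_x_at and 1460551_at, 0.030 for Rangap1 1423749_s_at and 0.19 for Xpo1 1418443_at. After quantile normalization they were 0.38 for Kpna3 1421828_at, 0.18 for Kpna4, 0.12 and 0.53 for Kpna6, 0.23 for 3 Ran probe sets (1433569_x_at, 1434578_x_at and 1438977_x_at), 0.25 for Ran 1439270_x_at and 0.12 for Xpo1 1418443_at. With equal hybridization controls Kpna3 1450385_at was at -0.19 and Rangap1 1444581_at at -0.30. With equal poly-A controls these were at -0.66 and -0.77, Rcc1 at -0.25, Ipo13 at -0.020 and Tpx2 at -0.39.

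With no moderation 1279 probe sets were called higher, 1 in the group, and 3 further genes. Among probe sets above the median mean 4438 were called lower, and among pairs above it 1446 differed, where fewer were tested. With the brightest probe set of type _at for each gene 10 further genes were lower. Leaving out 1 sample gave 1547 (without GV replicate 2) to 2127 probe sets called higher, 3 to 4 further genes higher and 3 (without MII replicate 2 or 3) to 5 member pairs called, with 2 member probe sets higher in every case and 5 to 6 lower. Signs turned there for Kpna6 1426796_at (-0.29 to 0.016, above 0 without GV replicate 1), Rangap1 1444581_at (-0.0021 to 0.18, below 0 without GV replicate 3), the Kpna3 pair 1450386_at and 1421828_at (-0.25 to 0.012, above 0 without GV replicate 2), and the Ran pairs of 1439270_x_at with 1433569_x_at (-0.045 to 0.10, below 0 without GV replicate 1, GV replicate 2 or MII replicate 2) and with 1460551_at (-0.040 to 0.35, below 0 without MII replicate 3).

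The titles number only 2 samples per stage. Same-numbered samples deviated together weakly (r of 0.029 and 0.027 across probe sets), and the other MII and GV pairs ran from -0.28 to 0.29. With 3 samples per stage centred on their mean, this check cannot tell whether same-numbered samples share more than a number. With the number as a replicate block on the 4 numbered samples, 2108 probe sets were called higher and 6843 lower, 2 and 6 in the group. In that fit 2643 pairs and 2 of the group's pairs were called, and 3 further genes were higher. Kpna6 1426796_at was at 0.058 and the Ran pair 1439270_x_at and 1433569_x_at at -0.012. On the same samples without the block, an alternative chosen after seeing the data, these values were 0.058 and -0.012 and 4 of the group's pairs were called.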
